A study of Homo sapiens with 10 samples.

Results

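MTHFD2, SHMT2, PHGDH, PSAT1, ATF4 and ASNS are genes of serine synthesis, mitochondrial folate metabolism and the amino acid stress response, and their histone acetylation was followed over IDH1-R132H induction. An island, a stretch of chromatin called by the authors as enriched over a control library, counted for a gene if it overlapped the gene's hg19 window widened by 10 kb on each side. In all, 155 of 778773 islands in 9 lists met this rule, 28 at MTHFD2, 23 at SHMT2, 57 at PHGDH, 20 at PSAT1, 25 at ATF4 and 2 at ASNS. The set was chosen by pathway and by a measured value, the H3K9ac reads at 2p13.1, where MTHFD2 lies. The H3K9ac ratios at MTHFD2 are therefore given as a description, and no test was run on any value.

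PHGDH and PSAT1 catalyse the opening steps of serine synthesis from the glycolytic intermediate 3-phosphoglycerate. In mitochondria SHMT2 passes a carbon unit of serine to tetrahydrofolate, and MTHFD2 oxidises the product on the way to formate, which feeds purine and thymidylate synthesis in the cytosol. ATF4, a transcription factor whose translation increases when amino acids run short or the endoplasmic reticulum is stressed, binds amino acid response elements in its target genes. ASNS, which makes asparagine, is the classical target, and the other enzymes listed here are also known ATF4 targets.

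The cells were immortalized human astrocytes (IHA), an SV40-immortalised fetal line, and CUT&RUN was used, in which an antibody directs a nuclease to its target in permeabilised cells. The noDox libraries carry the genotype label WT IDH1, and the 2d-Dox and 7d-Dox libraries, from cells kept for 2 days and 7 days in 1 µg/ml doxycycline, carry the label IDH1-R132H. Each time had 1 library for each of the antibodies against H3K9ac, H3K27ac and H4K16ac, all set against 1 control library made with the HRP secondary antibody from noDox cells. The line is the same in all 10 samples, and no cells had doxycycline but not IDH1-R132H, so doxycycline and time in culture cannot be told apart from IDH1-R132H. H3K9ac and H3K27ac are known from active promoters and enhancers, and H4K16ac from open chromatin more widely. In bulk material, acetylation in fewer cells and less acetylation per cell cannot be told apart. Astrocyte markers were not analysed here.

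Library size relative to the HRP library ranged from 1.49 to 7.88, and the order over time differed between marks. In H3K9ac it was 3.05 for noDox, 4.17 for 2d-Dox and 4.88 for 7d-Dox. The H3K27ac libraries ran the other way, at 3.98, 3.15 and 1.49, and the H4K16ac libraries at 2.53, 3.08 and 7.88. Depending on the list, the smallest island contained 11 to 33 antibody reads. Ratios below are of island reads divided by relative library size, with exact Clopper-Pearson intervals at 95% that cover counting error only, since no molecular identifiers are named and there are no replicates.

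The promoters of the members carry different known elements, and 4 of them are shown here to set the genes apart by sequence. RefSeq promoters on GRCh38.p14, running from 250 bases before the start to 50 after it, were at hand for 5 of the 6 genes. The core of the amino acid response element, searched as TGATGNAA on both strands, was found in ASNS alone among these 5, 68 bases before the start, against 4.46% of 27305 genes. CCAAT, the letters of the CCAAT box, was added to the search after the sequences were seen and occurred in 39.7% of those genes. It lay 184 and 74 bases before the MTHFD2 start, 71 before the PHGDH start, and 113, 83 and 52 before the PSAT1 start. No TGATGNAA overlapped a CCAAT in these windows, and CCAAT was found neither in ASNS nor in ATF4. ASNS has a further RefSeq promoter, chr7:97872116-97872415, in which TGATGNAA was not found. A match describes letters, not binding, and no match says only that these letters are missing from the window. The capitals mark the element found, TGATGNAA in ASNS and CCAAT in the other genes. ASNS lies on the minus strand at chr7:97872359-97872658, MTHFD2 on the plus strand at chr2:74198365-74198664, PHGDH on the plus strand at chr1:119711684-119711983 and PSAT1 on the plus strand at chr9:78296875-78297174, all on GRCh38.p14.
ASNS: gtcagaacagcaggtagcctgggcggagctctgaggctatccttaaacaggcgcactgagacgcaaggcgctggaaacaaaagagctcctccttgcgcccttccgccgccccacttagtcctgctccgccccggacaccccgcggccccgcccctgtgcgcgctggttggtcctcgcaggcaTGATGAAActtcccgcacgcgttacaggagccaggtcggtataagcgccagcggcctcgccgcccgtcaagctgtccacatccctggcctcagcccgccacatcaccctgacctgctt
MTHFD2: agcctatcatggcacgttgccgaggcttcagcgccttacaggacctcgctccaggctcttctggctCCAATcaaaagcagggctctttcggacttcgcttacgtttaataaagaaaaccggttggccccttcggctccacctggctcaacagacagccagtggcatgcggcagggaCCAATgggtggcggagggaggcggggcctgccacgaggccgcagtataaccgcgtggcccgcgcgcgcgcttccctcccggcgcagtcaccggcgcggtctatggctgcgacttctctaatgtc
PHGDH: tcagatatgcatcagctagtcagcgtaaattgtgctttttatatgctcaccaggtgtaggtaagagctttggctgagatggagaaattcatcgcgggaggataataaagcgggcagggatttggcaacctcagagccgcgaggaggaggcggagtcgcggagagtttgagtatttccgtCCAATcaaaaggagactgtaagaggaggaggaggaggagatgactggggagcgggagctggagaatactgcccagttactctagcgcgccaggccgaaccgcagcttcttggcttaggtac
PSAT1: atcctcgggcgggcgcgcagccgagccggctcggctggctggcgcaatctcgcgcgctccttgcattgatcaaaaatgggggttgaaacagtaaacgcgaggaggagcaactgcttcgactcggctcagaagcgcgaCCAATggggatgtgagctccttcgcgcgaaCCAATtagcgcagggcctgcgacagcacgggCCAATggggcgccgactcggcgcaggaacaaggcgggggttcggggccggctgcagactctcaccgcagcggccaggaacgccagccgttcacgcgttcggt

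All other coordinates are on hg19. The widened windows were chr2:74416-74452 kb for MTHFD2, chr12:57613-57639 kb for SHMT2, chr1:120192-120297 kb for PHGDH, chr9:80902-80955 kb for PSAT1, chr22:39906-39929 kb for ATF4 and chr7:97471-97512 kb for ASNS. No hg19 annotation of exons was at hand, so positions are given as distances from the 5′ end of the window, the lower edge for all genes but ASNS. By gene order in RefSeq, MTHFD2 lies between MOB1A and SLC4A5, SHMT2 between NXPH4 and COXFA4L2, PSAT1 between CEP78 and TLE4, ATF4 between MIURF and RPS19BP1, and ASNS between TAC1 and OCM2. An island at the edge of a window counted in full and may belong to a neighbour.

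At MTHFD2, the mitochondrial folate dehydrogenase, H3K9ac islands were short and away from the 5′ end without doxycycline and covered the 5′ end in both doxycycline libraries. They held 54 antibody reads in noDox, 386 in 2d-Dox and 597 in 7d-Dox, or 17.7, 92.5 and 122 reads per unit of library size. Both doxycycline values lay above the noDox value. The log2 ratio was 2.39 at 2d-Dox (interval 1.97 to 2.82) and 2.79 at 7d-Dox (2.38 to 3.22), and the 7d-Dox value was higher than the 2d-Dox value by 0.40 (0.21 to 0.59). The 2d-Dox and 7d-Dox ratios share the noDox library.

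The islands behind these sums differed in place and length more than in density. In noDox they lay at chr2:74417001-74418400 with 26 reads and at chr2:74432201-74433800 with 28 reads, 3 kb in all. In 2d-Dox a 12 kb island, chr2:74422801-74434800, held 325 reads and spanned the 5′ end, and chr2:74449801-74453600 held 61. In 7d-Dox there were 6 islands over 22.2 kb, of which chr2:74423801-74430000, across the 5′ end, held 260 reads and chr2:74431401-74433800 held 74. Island length was thus 15.8 kb in 2d-Dox and 22.2 kb in 7d-Dox against 3 kb in noDox. Reads per kb of island, by contrast, differed from noDox by a log2 ratio of -0.012 at 2d-Dox and -0.10 at 7d-Dox, so the higher sums were carried by the length called.

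The HRP control was itself high at the MTHFD2 5′ end, which raises the count an island needs there. The 7d-Dox island over the 5′ end had 35 HRP reads, or 5.65 per kb, a density above that of 99.6% of the islands in its list. Its fold over HRP in the authors' deposited table was 1.52, and that of the 2d-Dox island, with 41 HRP reads, was 1.90. Over the 7d-Dox stretch the noDox library would have needed 126 reads to reach the largest p-value in its list. A noDox count of up to 125 could therefore have gone unlisted, and 162 reads would match the 7d-Dox density. The 7d-Dox reads exceeded that limit by 0.38 on the log2 scale, and the 2d-Dox reads exceeded the limit over their own stretch by 0.72. The 2d-Dox stretch includes the listed noDox island of 28 reads, which this limit does not take into account, so 0.72 may be too high. The smaller site about 7 kb inside the window, chr2:74431401-74433800 in 7d-Dox, had only 2 HRP reads and was listed in both libraries. There the log2 ratio of 7d-Dox over noDox was 0.72 (0.077 to 1.40), or 0.14 per kb of island.

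H3K27ac was listed over the MTHFD2 5′ end at every time, which H3K9ac was not. Its 5′ islands held 499 reads over 7.6 kb in noDox, 290 over 4.6 kb in 2d-Dox and 144 over 3.8 kb in 7d-Dox, with 39, 33 and 32 HRP reads. The authors' deposited table gives folds over HRP of 3.21, 2.79 and 3.02 for these islands. Summed over the widened window, H3K27ac reads were 641 in noDox, 386 in 2d-Dox and 238 in 7d-Dox, in falling order with library size. The log2 ratio was -0.39 at 2d-Dox (-0.58 to -0.21) and -0.013 at 7d-Dox (-0.23 to 0.20). The 2d-Dox library was lower than noDox beyond counting error, and the 7d-Dox interval included equality, while per kb of island both ratios were above 0, at 0.28 and 0.27. For the 5′ islands alone the log2 ratios were -0.44 at 2d-Dox and -0.38 at 7d-Dox, but the direction turned per kb of island. Their reads per kb per unit of library size were 16.5 in noDox, 20.0 in 2d-Dox and 25.4 in 7d-Dox. The lower sums thus go with the shorter length called. Over the merged region chr2:74423201-74434200, which joins the 5′ islands with the next ones inside the gene, the reads were 596, 386 and 198, with ratios of -0.29 (-0.48 to -0.10) and -0.17 (-0.41 to 0.061).

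H4K16ac at MTHFD2 held 69 reads in noDox, 132 in 2d-Dox and 663 in 7d-Dox, over 5.2, 8.2 and 21 kb. The log2 ratio was 0.65 at 2d-Dox (0.22 to 1.09) and 1.63 at 7d-Dox (1.27 to 2.01), and per kb of island the ratios were -0.0059 and -0.39. Of the 4 islands in 7d-Dox, chr2:74432401-74441200 with 250 reads lay in the gene's far part, and chr2:74444601-74447600 with 119 reads and chr2:74448401-74455400 with 228 reads lay beyond it. The other one, chr2:74422201-74424400 with 66 reads, ended 1.6 kb before the 5′ end, where noDox and 2d-Dox listed none. No list had an H4K16ac island over the stretch of the 2d-Dox H3K27ac island at the 5′ end, where 33 HRP reads meant that 101 reads in noDox, 120 in 2d-Dox and 289 in 7d-Dox would have been needed. The 7d-Dox H4K16ac library was the deepest of the 9, and its part in the longer islands was not tested.

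**Figure D1:**
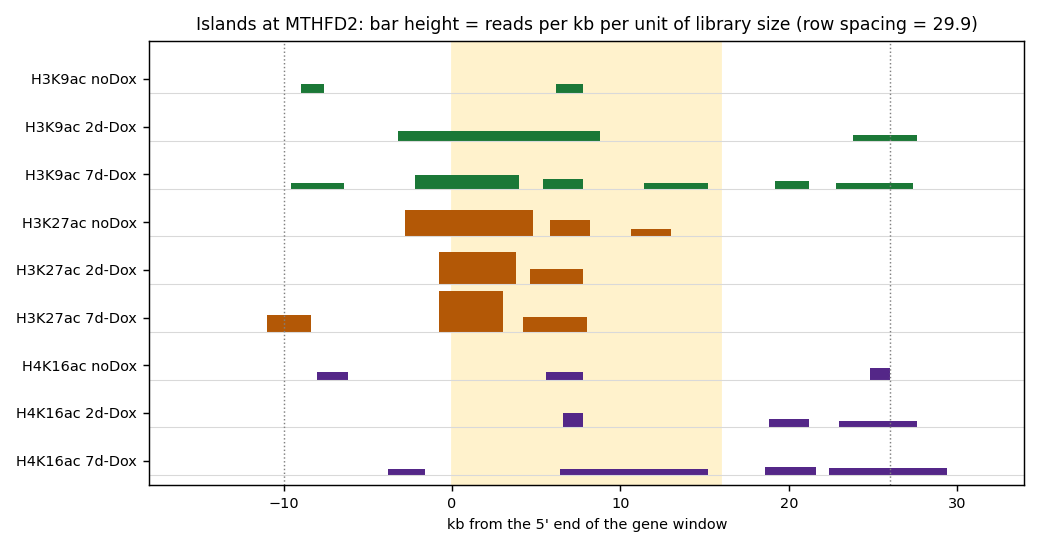
Islands at MTHFD2 for each mark and time, drawn by distance in kb from the 5′ end of the gene window. Bar height is reads per kb of island per unit of library size, the yellow band is the gene window, and dotted lines are the widened edges. The 5′ end has no H3K9ac island in noDox and one of 12 kb in 2d-Dox, while H3K27ac covers it in all 3 rows.

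SHMT2, the mitochondrial serine hydroxymethyltransferase, kept an H3K9ac and an H3K27ac island over its 5′ end at every time. H3K9ac reads in its window were 336 in noDox, 409 in 2d-Dox and 478 in 7d-Dox, and scaled by library size both ratios were -0.17 on the log2 scale (-0.38 to 0.044 at 2d-Dox and -0.38 to 0.034 at 7d-Dox). Both intervals included equality, and per kb of island the ratios were 0.083 and -0.13. The 2d-Dox sum includes chr12:57610201-57613200, an island of 69 reads at the window's edge that noDox and 7d-Dox did not list. Over the merged region chr12:57620001-57639600, which leaves it out, the 2d-Dox ratio was -0.44 (-0.66 to -0.21), beyond counting error. The 7d-Dox ratio there was -0.17 (-0.38 to 0.034). The sums include islands outside the gene, and with the window not widened the 2d-Dox ratio was -1.10. That value counts in full the noDox island chr12:57627601-57635200, which has 142 reads and runs past the gene window. It leaves out the 2d-Dox island chr12:57632801-57638800, which has 186 reads and starts beyond that window. At the 5′ end itself the H3K9ac islands held 138, 154 and 243 reads, with ratios of -0.29 (-0.64 to 0.048) and 0.14 (-0.17 to 0.45), or 0.12 and -0.67 per kb of island.

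For H3K27ac the SHMT2 window held 518 reads in noDox, 310 in 2d-Dox and 259 in 7d-Dox. The log2 ratio was -0.40 at 2d-Dox (-0.61 to -0.20) and 0.42 at 7d-Dox (0.20 to 0.63), so the doxycycline libraries lay on opposite sides of noDox. The 5′ islands alone gave 314, 193 and 155 reads and ratios of -0.36 (-0.63 to -0.10) and 0.40 (0.11 to 0.68). H4K16ac had 1 small island at SHMT2, chr12:57622601-57623800 at the 5′ end, with 21 reads in noDox, and none in 2d-Dox or 7d-Dox. At the noDox density, 25.6 reads in 2d-Dox and 65.3 in 7d-Dox would have stood there, against 12 and 24 needed by p-value. The smallest islands of those lists held 14 and 33 reads.

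PHGDH, whose enzyme commits 3-phosphoglycerate to serine, had the most islands, and its widened window, at 105 kb, is the longest. H3K9ac reads were 427 in noDox, 806 in 2d-Dox and 851 in 7d-Dox, in 4, 10 and 9 islands. The log2 ratio was 0.46 at 2d-Dox (0.29 to 0.64) and 0.32 at 7d-Dox (0.15 to 0.49), and per kb of island -0.32 and -0.46. Islands listed in the doxycycline libraries alone, such as chr1:120228801-120231200 with 45 reads in 2d-Dox and chr1:120280401-120285000 with 100 reads in 7d-Dox, carried the higher sums. One island of 184 reads in 7d-Dox, chr1:120188001-120192000, touched the widened window by its last base and was counted in full. At the 5′ end of the window the H3K9ac islands were small, chr1:120201801-120204200 with 37 reads in noDox, chr1:120200801-120203200 with 50 in 2d-Dox and chr1:120202401-120206200 with 56 in 7d-Dox.

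H3K27ac at PHGDH was held mainly at 3 sites that recurred at every time. These sites were picked after their values were seen. The upstream site, chr1:120185201-120192200 in noDox, had 530 reads in noDox, 427 in 2d-Dox and 221 in 7d-Dox, with log2 ratios of 0.027 (-0.16 to 0.21) and 0.15 (-0.079 to 0.38). In noDox it lay at -16.8 to -9.8 kb from the window's 5′ end. It met the widened window only at its edge and may belong to a neighbour, and the neighbours of PHGDH were not listed here. With the window not widened, which leaves this site out, the H3K27ac ratios of PHGDH were -0.14 and -0.010. The inner site, chr1:120252201-120258400 in noDox, had 293, 184 and 126 reads and ratios of -0.33 (-0.61 to -0.062), 0.037 per kb, and 0.20 (-0.11 to 0.50). It lies 34.8 to 28.6 kb before the window's end, and the RefSeq gene is 32.3 kb long while the window spans 85 kb. At the 5′ end of the window H3K27ac had 1 island, chr1:120200201-120200600 with 13 reads and no HRP read, in 7d-Dox.

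The middle site, chr1:120214401-120219000 in noDox, had a lower ratio than either in the 7d-Dox library. It held 258 reads in noDox, 212 in 2d-Dox and 38 in 7d-Dox, all with 6 HRP reads. The 2d-Dox ratio was 0.055 (-0.21 to 0.32), and the 7d-Dox ratio was -1.35 (-1.88 to -0.85), or -0.63 per kb of island. H3K9ac at the same site held 88, 97 and 111 reads, with ratios of -0.31 (-0.74 to 0.12) and -0.34 (-0.76 to 0.075). The window sum of H3K27ac, 1081 reads in noDox, 823 in 2d-Dox and 439 in 7d-Dox, did not show the lower middle site, since its ratios were -0.055 (-0.19 to 0.078) and 0.12 (-0.047 to 0.28).

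H4K16ac reads at PHGDH were 411 in noDox, 351 in 2d-Dox and 1668 in 7d-Dox. The log2 ratio was -0.51 at 2d-Dox (-0.72 to -0.30) and 0.38 at 7d-Dox (0.23 to 0.54). At the window's 5′ end the islands with the most reads were chr1:120197001-120200000 with 37 reads in noDox, chr1:120198401-120202000 with 51 in 2d-Dox and chr1:120201801-120208000 with 159 in 7d-Dox. In 7d-Dox a single island of 31.2 kb, chr1:120260201-120291400, held 1128 of the reads and 82 HRP reads, where noDox had 231 reads in 3 islands. The direction at 7d-Dox turned with the method, to -0.57 per kb, -0.13 when scaled by reads in islands and -0.20 with HRP reads subtracted. That at 2d-Dox turned to 0.90 at the window's 5′ end alone.

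**Figure D2:**
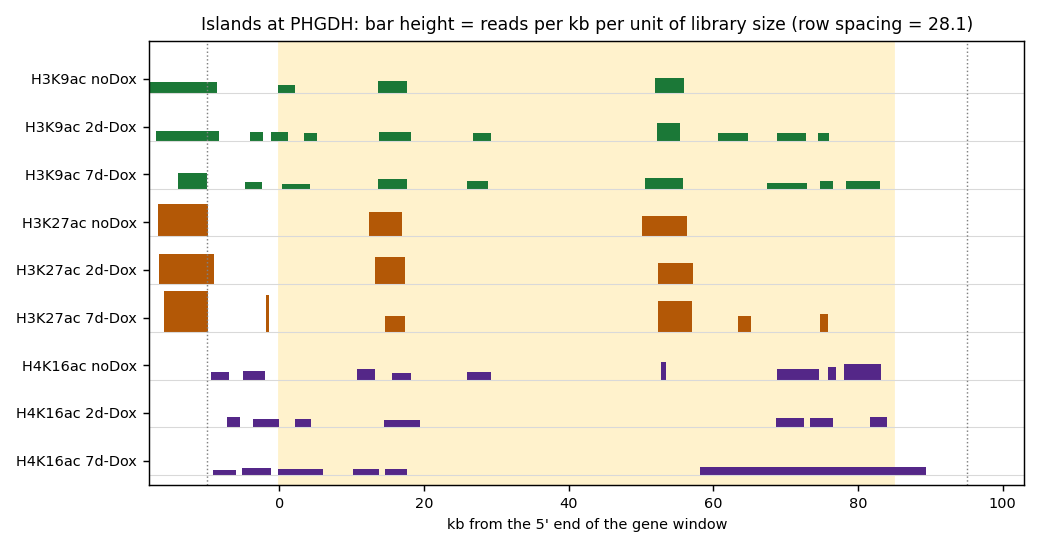
Islands at PHGDH by distance in kb from the 5′ end of its 85 kb window, drawn as for MTHFD2, with islands past the left edge cut there. H3K27ac stands at 3 sites at every time, and the middle one, about 15 kb inside the window, is lower in 7d-Dox, with 38 reads against 258 in noDox.

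PSAT1, the aminotransferase that follows PHGDH, had islands of all 3 marks at its 5′ end in all 9 lists. H3K27ac was confined to 1 island per list, with 335 reads in noDox, 259 in 2d-Dox and 119 in 7d-Dox, and log2 ratios of -0.032 (-0.27 to 0.21) and -0.077 (-0.39 to 0.23). The scaled values, 84.2, 82.3 and 79.8 reads per unit of library size, lay within counting error of each other, while per kb of island the ratios were 0.87 and 0.41. H3K9ac reads in the window were 213, 199 and 329, with ratios of -0.55 (-0.84 to -0.27) at 2d-Dox, 0.0088 per kb, and -0.053 (-0.31 to 0.20) at 7d-Dox. The 7d-Dox reads stood in 1 island of 12.2 kb, chr9:80908401-80920600, which held 329 reads against 115 in the 4 kb noDox island at the 5′ end, a ratio of 0.84 (0.53 to 1.16), or -0.77 per kb of island. H4K16ac reads were 104, 86 and 520, with ratios of -0.56 (-0.99 to -0.13) and 0.68 (0.38 to 1.00), and the 7d-Dox ratio turned to -1.23 per kb, -0.13 over islands with an FDR of at most 0.001 and -0.82 with HRP reads subtracted.

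ATF4, the transcription factor of the group, likewise had an island of each mark at its 5′ end in all 9 lists and held the most H3K27ac of the 6 windows. Its H3K27ac reads were 1205 in noDox, 888 in 2d-Dox and 542 in 7d-Dox, with log2 ratios of -0.10 (-0.23 to 0.025) and 0.26 (0.11 to 0.41). The 7d-Dox ratio turned to -0.40 when the window was not widened. In 2d-Dox a single island of 21.6 kb, chr22:39909601-39931200, held 861 of the reads, where noDox had islands of 404 reads over the 5′ end and 740 reads mostly beyond the gene. The islands within 2.5 kb of the 5′ end include that long one in 2d-Dox and a second one, chr22:39918401-39921600 with 98 reads, in 7d-Dox. The noDox island of 740 reads starts 2.6 kb from the 5′ end and was left out. H3K27ac ratios by this rule were 1.43 (1.26 to 1.60) and 1.10 (0.88 to 1.31), or -0.87 and 0.098 per kb. H3K9ac reads were 357, 477 and 976, with ratios of -0.035 (-0.24 to 0.17) and 0.77 (0.59 to 0.95). The 7d-Dox value was higher than noDox, but the sum includes chr22:39896401-39912000, an island of 410 reads that starts outside the window and stops 4 kb short of the gene. Over the 5′ end alone H3K9ac held 198, 196 and 218 reads, with ratios of -0.47 (-0.76 to -0.17) and -0.54 (-0.83 to -0.26), but per kb the 7d-Dox ratio was 0.11. The noDox island there also covers ground that 7d-Dox lists in the long upstream island, and over the merged region, chr22:39896201-39917400, the ratios were -0.038 (-0.24 to 0.17) and 0.21 (0.017 to 0.40). H4K16ac reads were 85, 104 and 518, with ratios of 0.0064 (-0.42 to 0.44) and 0.97 (0.64 to 1.32). When only the share of each island inside the window counted, these H4K16ac ratios were -0.65 and 0.35. Per kb of island the 7d-Dox ratios were -0.39 for H3K9ac and -0.32 for H4K16ac.

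ASNS, the asparagine synthetase with the response element shown above, was almost free of listed acetylation in its widened window. Its islands were 1 of H3K9ac in noDox, chr7:97501401-97502200 with 23 reads and 2 HRP reads, and 1 of H3K27ac in 7d-Dox, chr7:97501001-97501800 with 22 reads and 7 HRP reads. Both lay within 1 kb of the 5′ end, and the folds over HRP in the authors' deposited table were 3.77 and 2.11. The H3K27ac island had 8.75 HRP reads per kb, above 99.2% of the islands in its list, which raises the count needed there. The ASNS window before widening spans 21 kb, while the RefSeq gene is 76.8 kb long, so part of the gene may lie outside it. No H4K16ac island was listed at any time, and with 1 side at 0 no ratio was computed. For H3K9ac, the noDox density corresponds to 31.5 reads in 2d-Dox and 36.8 in 7d-Dox, above the 15 and 16 needed by p-value. For H3K27ac, the 7d-Dox density corresponds to 58.7 reads in noDox and 46.4 in 2d-Dox, above the 38 and 31 needed. Lower counts than these at ASNS were not detectable in the lists.

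**Figure D3:**
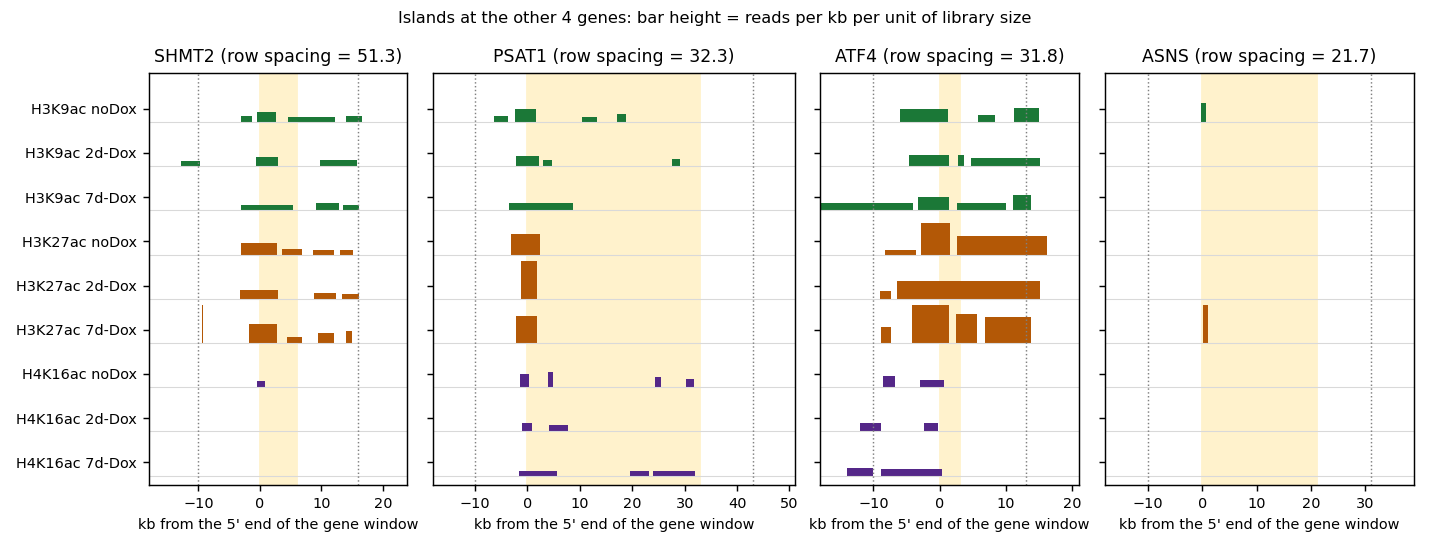
Islands at SHMT2, PSAT1, ATF4 and ASNS by distance in kb from the 5′ end, drawn as for MTHFD2, with a height scale per gene and islands past the left edge cut there. ATF4 and PSAT1 have an island at the 5′ end in all 9 rows, and ASNS has 2 islands in all.

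Across the 6 genes, islands within 2.5 kb of the 5′ end were counted in each list. H3K9ac had such an island at 5 genes at each time. In noDox, 2d-Dox and 7d-Dox, H3K27ac had it at 4, 4 and 6 genes and H4K16ac at 4, 3 and 4. An island counted in this way need not cover the 5′ end. In 7d-Dox the H3K27ac island of PHGDH ended 1.4 kb before it, and that of ASNS lay 0.2 to 1.0 kb inside the window. The 7d-Dox H4K16ac island of MTHFD2 ended 1.6 kb before the 5′ end. ATF4 and PSAT1 had an island within 2.5 kb in 9 of 9 lists, PHGDH and SHMT2 in 7, MTHFD2 in 6 and ASNS in 2. The share over all genes was not computed, and the lists cover from 222 to 586 Mb, so these counts only describe the members. These counts take the 5′ end of PHGDH from its 85 kb window. Counted back from the window's end by the RefSeq length of 32.3 kb, its start would fall in the inner site. H3K27ac was listed there in noDox, 2d-Dox and 7d-Dox, with 293, 184 and 126 reads. The lists together held 25 merged H3K9ac regions at these genes, of which 9 were in all 3 lists, with 9 of 17 for H3K27ac and 8 of 17 for H4K16ac. Over all merged regions of the series the shares in all 3 lists were 37.1% for H3K9ac, 44.1% for H3K27ac and 30.3% for H4K16ac.

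**Figure D4:**
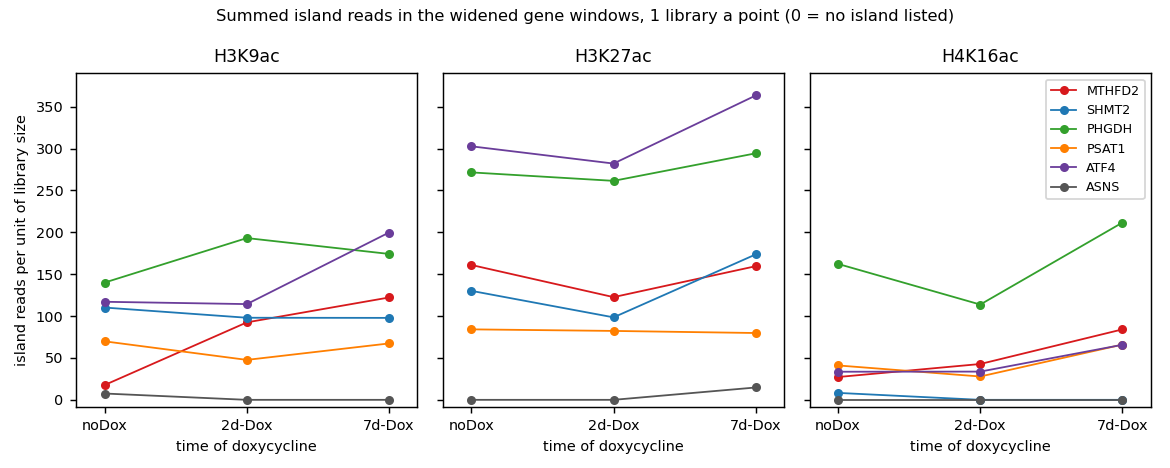
Island reads per unit of library size in the widened window of each gene, by mark and time, with 1 library per point and 0 where no island was listed. MTHFD2 goes through 17.7, 92.5 and 122 in H3K9ac, ATF4 and PHGDH hold the highest H3K27ac values, and ASNS lies at or near 0.

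The members were read against all 40 kb tiles of the genome in which the libraries compared each had an island and the larger count was 50 reads or more. For H3K9ac, 1 of 5 members with a ratio, MTHFD2, was at least 2-fold higher at 2d-Dox and 0 were 2-fold lower, while 8.41% of tiles were higher and 9.2% lower. At 7d-Dox it was again 1 of 5, MTHFD2, and 0 lower, against 10.3% and 7.36% of tiles. Since H3K9ac at MTHFD2 chose the set, these counts support nothing. For description, 99.6% of tiles had a lower ratio than MTHFD2 at 2d-Dox and 99.8% at 7d-Dox. The median log2 ratio of the 5 members was -0.035 at 2d-Dox and 0.32 at 7d-Dox, against -0.0096 and 0.066 over tiles.

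For H3K27ac, 0 of 5 members passed 2-fold in either direction at 2d-Dox, where 1.44% of tiles were higher and 5.69% lower. At 7d-Dox it was again 0 of 5, with 3.97% of tiles higher and 12.3% lower. The member medians were -0.10 and 0.12, against -0.13 and -0.16 over tiles. For H4K16ac, 0 of 4 members passed 2-fold at 2d-Dox, where 19.3% of tiles were higher and 14.2% lower. At 7d-Dox 1 of 4, MTHFD2, was higher and 0 lower, against 38.2% and 3.94% of tiles. With 4 members this count is too small to be set apart from the share of tiles, and 83.0% of tiles had a lower ratio than MTHFD2. The member medians for H4K16ac were -0.25 and 0.83, against 0.18 and 0.74 over tiles.

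**Figure D5:**
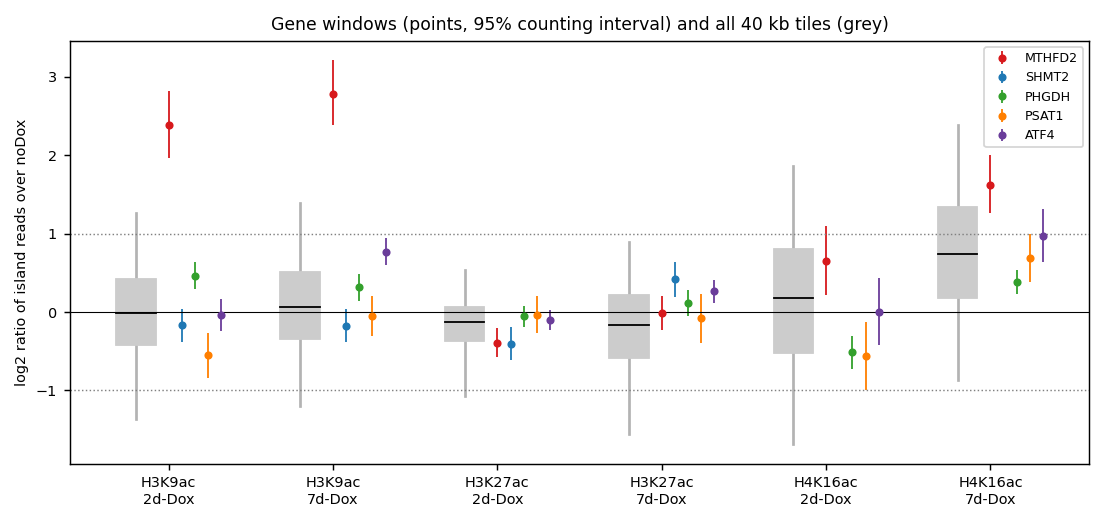
Log2 ratio of island reads, divided by library size, of 2d-Dox and 7d-Dox over noDox for each gene with a ratio, with 95% counting intervals. Grey boxes and lines are the quartiles and the 5% to 95% range of all 40 kb tiles, and dotted lines mark 2-fold. MTHFD2 stands at 2.39 and 2.79 in H3K9ac, and the other members lie inside the range of the tiles.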

How the data were processed

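CUT&RUN was done on immortalized human astrocytes in 10 samples, 9 antibody libraries and 1 HRP control library. The submitters' processing notes name Bowtie2 2.3.5.1, cutadapt, FastQC, deepTools, Picard and SICER, with hg19 as build. Their settings were not given in the sources used here. Each deposited list holds, per island, the antibody read count and the HRP read count, not normalised. The deposited p-value and FDR compare the antibody count with the scaled HRP count, and no island had an FDR above 0.05. The deposited log2 fold is the log2 ratio of both counts less 1 constant per list, and the deposited score is a multiple of it. An HRP count of 0 entered the fold as 0.25.

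That constant gave the relative library size. Antibody reads of all islands overlapping a widened window were summed, each in full, divided by relative library size and set against noDox as a log2 ratio, and 40 kb tiles of chromosomes 1 to 22 and X were treated alike. With 1 library per mark and time no test was possible. A called sum depends on library size and on the length called, so reads per kb are given beside it at the main values whose direction they turn. Where no island was listed, the count needed to reach the list's largest p-value given the scaled HRP count is given; this takes the p-value as the sole rule. The code recovered known ratios on simulated data. Alternatives were other scalings, window rules, a stricter FDR, another fold and subtraction of HRP reads.

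The members and all lists, including the wider pathway lists, were chosen with earlier results of these data known. All 6 members were to be named, with the island at the 5′ end and the island with the most reads per mark, and some of these islands are given by their reads alone or within sums. Islands of the wider lists were not analysed here, since no hg19 annotation was at hand. Promoters came from RefSeq on GRCh38.p14, matched by symbol, and no coordinates were moved between builds. The software was Python 3.11.15 with numpy 2.4.6, pandas 2.3.3, scipy 1.17.1 and matplotlib 3.10.9.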

Additional observations from a re-analysis of the deposited data

How the results depend on the processing

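No paired analysis was possible because each group had 1 library per mark, and for the same reason no replicate could be left out. Per kb of island the MTHFD2 ratios changed sign, to -0.012 for H3K9ac at 2d-Dox, -0.10 for H3K9ac at 7d-Dox and -0.39 for H4K16ac at 7d-Dox, and no member was then 2-fold higher in H3K9ac (0 at 2d-Dox and 0 at 7d-Dox). These are values whose island length differed most, as the report gives it. The other MTHFD2 ratios also changed sign, to 0.28 and 0.27 for H3K27ac and to -0.0059 for H4K16ac at 2d-Dox. Ratios of other members did so too, such as H3K9ac at PHGDH at 2d-Dox, from 0.46 to -0.32. With the gene window not widened, 2 members passed 2-fold for H3K9ac at 2d-Dox, SHMT2 as the lower one, and 2 for H4K16ac at 7d-Dox. The H3K9ac ratio of MTHFD2 at 2d-Dox was then 3.08. The SHMT2 value counts in full a noDox island that runs past the window, and over the merged region its 2d-Dox ratio was -0.44. With islands of the 5′ end alone, 1 member passed for H3K27ac at 2d-Dox and 1 at 7d-Dox, 0 and 0 for H3K9ac, where noDox had no MTHFD2 island to form a ratio, and 2 for H4K16ac at 7d-Dox. An alternative added after the data were seen, with PHGDH starting at its RefSeq length before the window's end, gave 1 and 1 for H3K27ac and 0 and 0 for H3K9ac. The H3K27ac member under both was ATF4, whose 2d-Dox island joined 21.6 kb. Its 7d-Dox count took in a second island that starts 2.4 kb from the 5′ end, while a noDox island of 740 reads starts at 2.6 kb and was left out. Over the merged region, chr22:39907001-39932200, the ATF4 ratios were -0.10 and 0.26. With HRP reads subtracted, 1 member, PSAT1, passed for H4K16ac at 2d-Dox, as lower. At 1.5-fold, 2 passed for H3K9ac at 7d-Dox, 1 for H4K16ac at 2d-Dox and 3 for H4K16ac at 7d-Dox, all as higher, while 21.98%, 32.7% and 57.2% of tiles were higher by that fold. Shares of tiles were not computed for the other alternatives. Scaling by reads in islands shifted all H4K16ac 7d-Dox ratios by -0.51 and all H3K27ac 2d-Dox ratios by 0.10, and moved 4 of 28 single ratios beyond their counting interval. An FDR of at most 0.001 moved 1 of 27, the share inside the window 6 of 28 and subtraction of HRP reads 6 of 28. The window not widened moved 12 of 27 and the 5′ end alone 13 of 22. Reads per kb moved 18 of 28, besides the 3 MTHFD2 values given first above. The HRP count, scaled by library size, limits what the lists can show at the MTHFD2 5′ end and at ASNS. Unlisted stretches at PHGDH, PSAT1 and ATF4 were not examined in this way. The causes were not tested.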

Other observations

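Among genes of wider lists, drawn up from textbook knowledge of the pathways, the promoter search gave further copies of TGATGNAA. In the folate and serine list it was found in 3 of 13 genes with a RefSeq promoter (23.1%), MTHFD1L, SLC1A4 and SLC1A5, of 18 listed. In the list of ATF4 targets and stress genes it was found in 8 of 25 with a promoter (32%), of 30 listed: AARS1, ATF3, CHAC1, FGF21, GARS1, NARS1, SLC3A2 and SLC7A1. CHAC1 degrades glutathione, ATF3 is a stress-induced transcription factor, and AARS1, GARS1 and NARS1 charge transfer RNAs. Over all genes the share was 4.46%. No chance test was made, and the islands at these genes were not analysed here.

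Over the 6 log2 ratios of 3 marks and 2 times, the 40 kb tiles most like MTHFD2 among 13384 with islands in all lists were chr1:62160001-62200000, chr17:4800001-4840000 and chr12:76200001-76240000 on hg19. Their Euclidean distances were 1.15, 1.20 and 1.21. Their H3K9ac log2 ratios over noDox were 2.46, 3.09 and 1.96 at 2d-Dox and 2.12, 3.06 and 2.17 at 7d-Dox, in that order of tiles. These ratios share the noDox libraries.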
